A study of Mus musculus with 8 samples.

Results

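The genes described here are the DNA repair families found by symbol on mouse expression arrays: the Fanconi anaemia genes, the Rad, Xrcc and Brca genes, the mismatch repair genes, the Ercc, Neil and Parp genes. A gene was taken when a non-control probe set named it and no other gene and its symbol began with one of these family names. Each gene was represented by its probe set of highest mean over the EphB2 arrays. This gave 63 genes, reached by 140 probe sets, of 18193 genes measured. They were grouped by repair pathway from general knowledge, and 5 genes that share a family name but were placed in none of these groups were kept apart.

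All 8 arrays came from epithelial cells of C57BL/6 mouse intestine that were released from the tissue, sorted by flow cytometry and described in the labels as crypt cells. The EphB2 sort used an antibody against EphB2, a tyrosine kinase receptor that is most abundant on cells at the bottom of the crypt, and gave EphB2 High, EphB2 Medium and EphB2 Low groups with 2 arrays each. The Lgr5 sort used mice carrying EGFP knocked into Lgr5, a stem cell gene of the crypt base, and gave Lgr5 High and Lgr5 Low groups with 1 array each; those 2 groups therefore share a knock-in allele that the EphB2 groups are not said to carry. Replicate 1 of each EphB2 group was hybridized in a first session and replicate 2 in a second, and the Lgr5 arrays in a session of their own. Nothing in the labels ties the replicates to different animals, and the p-values then measure only how far these arrays differ, which may be technical.

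Values are log2 levels from RMA, which gave the 8 arrays nearly equal distributions (medians of all probe sets between 6.12 and 6.20), and a shift of all RNA in a cell is hidden by that step. A level or difference of a gene in a sorted population can come from fewer cells of a type or from less RNA per cell, and these cannot be told apart here. Against the sort labels, 12 of 12 stem cell markers were higher in EphB2 High than in EphB2 Low cells, 13 of 13 measured enterocyte markers were lower, and 5 of 6 Paneth cell markers were higher. Of tuft cell markers 4 of 6 were higher (median log2 difference 1.88), while 4 of 9 enteroendocrine markers were lower (median -1.05) and of 8 goblet cell markers 4 were lower and 1 was higher (median -0.31). Whether these cell types had a part in the repair gene differences was not tested. Markers of lymphocytes, myeloid cells and stroma had median levels of 4.20 to 4.84 on the High arrays, 4.22 to 5.16 on the Medium arrays and 4.49 to 5.06 on the Low arrays, below the median of all probe sets.

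Cells repair DNA through several routes. Base excision, nucleotide excision and mismatch repair replace damaged or mispaired bases by copying the intact strand. Broken chromosomes are rejoined directly by end joining or copied from the sister chromatid by homologous recombination, which is available after replication and in which the Brca proteins act. The Fanconi anaemia proteins unlink crosslinked strands at stalled replication forks and hand the break to recombination. Cells at the base of the crypt divide rapidly, while enterocytes leaving the crypt have stopped dividing.

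Between EphB2 High and EphB2 Low cells, most of the repair families were higher at the High end, and a group of ADP-ribosyltransferases outside the core repair pathways was lower. Of the 63 genes, 40 were higher in EphB2 High cells, 6 were lower and 17 were not called (limma, Benjamini-Hochberg adjusted over all genes, call at an adjusted p below 0.05). That is 73.0% called, while 37.3% of all genes were called in this comparison. The share of all genes called higher was 22% and the share called lower 15.3%. At least a 2-fold difference was reached by 29 of the 40 and by all 6 of the lower genes. The High arrays both lay above the Low arrays for 49 genes, both lay below for 9 and overlapped them for 5, while the groups did not overlap for 68% of all genes (36.4% above and 31.7% below). The median log2 difference was 0.95 over the 63 genes and 0.01 over all genes. By pathway, the higher genes were 11 of 11 for homologous recombination, 7 of 8 for the Fanconi core complex, 2 of 2 for the FANCD2 and FANCI pair, 5 of 5 for mismatch repair, 4 of 5 for the checkpoint clamp and lesion bypass, 4 of 6 for base excision and single-strand breaks, 2 of 3 for end joining and 3 of 8 for nucleotide excision. Of the 8 other ADP-ribosyltransferases 0 were called higher by limma and 5 were called lower (5 at an unadjusted p below 0.05, all of them lower).

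**Figure D1:**
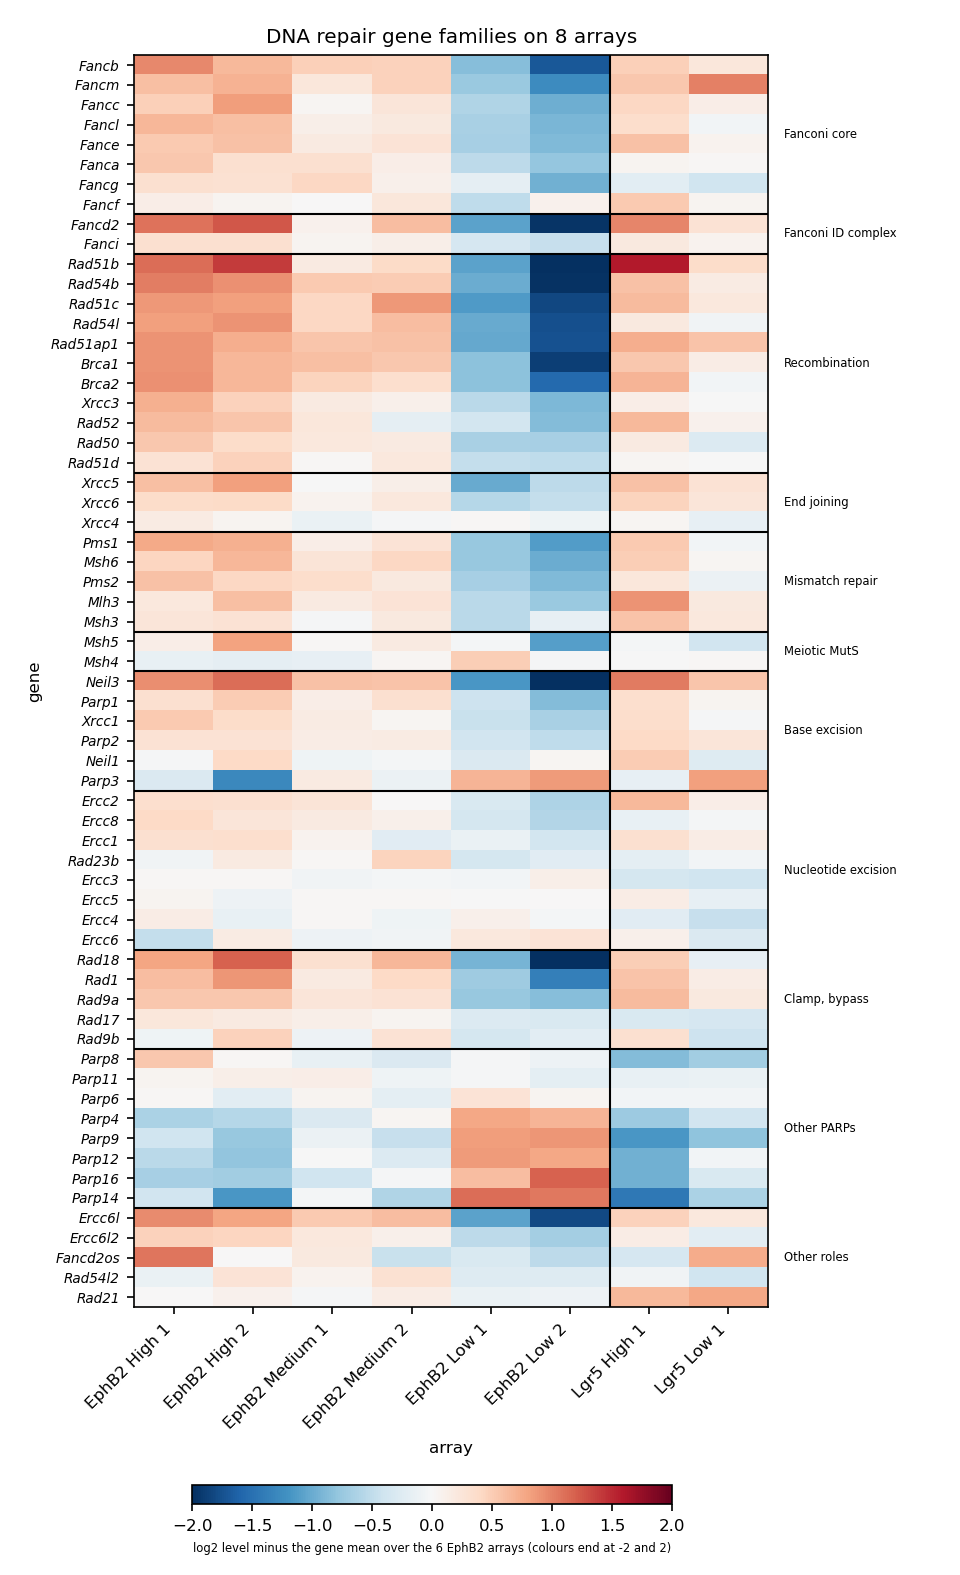
Heat map of the 63 genes (rows, grouped by pathway) on the 8 arrays (columns). Colour gives the log2 level minus the gene's mean over the 6 EphB2 arrays, red for higher and blue for lower. The recombination, Fanconi and mismatch repair rows, apart from Fancf, run from red on the EphB2 High arrays to blue on the EphB2 Low arrays, mostly deepest on Low replicate 2, and the lower Parp rows run the other way.

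**Figure D2:**
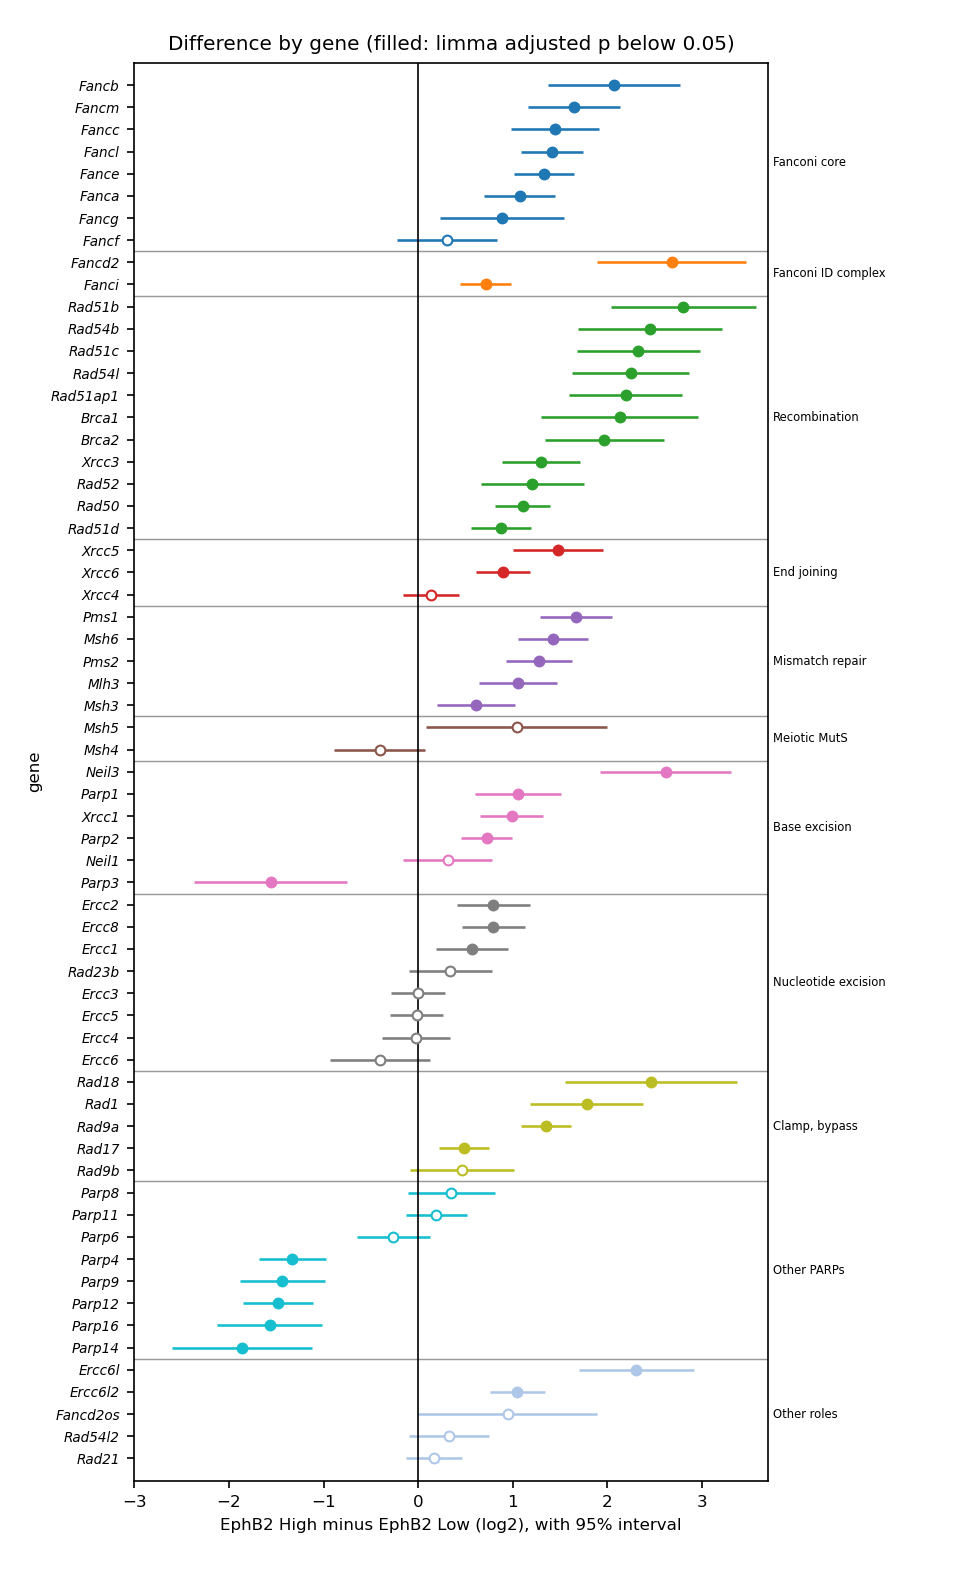
Log2 difference EphB2 High minus EphB2 Low for each of the 63 genes, grouped and coloured by pathway, with limma's 95% interval (n = 2 arrays per group). Filled points have an adjusted p below 0.05. Homologous recombination lies to the right of 0 for all 11 genes, from 0.87 for Rad51d to 2.81 for Rad51b.

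Homologous recombination had the largest median difference of any pathway with at least 3 genes, 2.13 on the log2 scale over its 11 genes. Rad51b, which acts early in strand exchange, read 9.02 and 9.31 on the High arrays, 8.08 and 8.29 on the Medium arrays and 6.83 and 5.89 on the Low arrays. The High arrays lay far above the Low arrays, with the Medium arrays between them. Its difference was 2.81 ± 0.31 on the log2 scale, the largest of the 63 (SE from the 6 arrays, 2 in each group; limma adjusted p = 0.00169), and 1.75 with all its probe sets averaged (adjusted p = 0.00125). Rad54b, a DNA translocase of recombination, read 10.26 and 10.15 on the High arrays, 9.76 and 9.75 on the Medium arrays and 8.24 and 7.26 on the Low arrays (difference 2.45 ± 0.31). Rad51c, which acts in the same step as Rad51b, read 7.31 and 7.27 on the High arrays, 6.85 and 7.31 on the Medium arrays and 5.31 and 4.62 on the Low arrays (difference 2.33 ± 0.26). For Rad51c one Medium array reached the level of the High arrays, and both Low arrays stood far below the others.

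Brca1, the ubiquitin ligase subunit that promotes the cutting back of broken ends, read 10.79 and 10.55 on the High arrays, 10.48 and 10.42 on the Medium arrays and 9.07 and 8.00 on the Low arrays. The Low arrays lay about a log2 unit apart, and both lay below every other EphB2 array. The Brca1 difference was 2.13 ± 0.34 (4.38-fold, adjusted p = 0.00489), and leaving out each array in turn gave 1.60 to 2.66. Of its 3 further probe sets, 2 above the median of all probe sets had differences of 2.25 and 2.37. Brca2, which mediates the start of strand exchange, read 10.55 and 10.29 on the High arrays, 10.09 and 9.96 on the Medium arrays and 8.82 and 8.08 on the Low arrays (difference 1.97 ± 0.25, adjusted p = 0.00252). The remaining genes of the pathway were the translocase gene Rad54l (2.25 ± 0.25), the strand exchange accessory gene Rad51ap1 (2.20 ± 0.24), the strand exchange factor genes Xrcc3 (1.30 ± 0.17) and Rad51d (0.87 ± 0.13), the annealing factor gene Rad52 (1.21 ± 0.22) and Rad50 (1.11 ± 0.12), the ATPase of the complex that first binds broken ends. All 6 were higher by the same test. The set of Xrcc3 is of a kind that can reach other transcripts. Rad50 differed by 0.59 with its probe sets averaged (adjusted p = 0.0220), and Rad51d was no longer called when all its probe sets were averaged (0.36, adjusted p = 0.0995; adjusted p of 0.00894 to 0.0308 over leaving out each array).

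**Figure D3:**
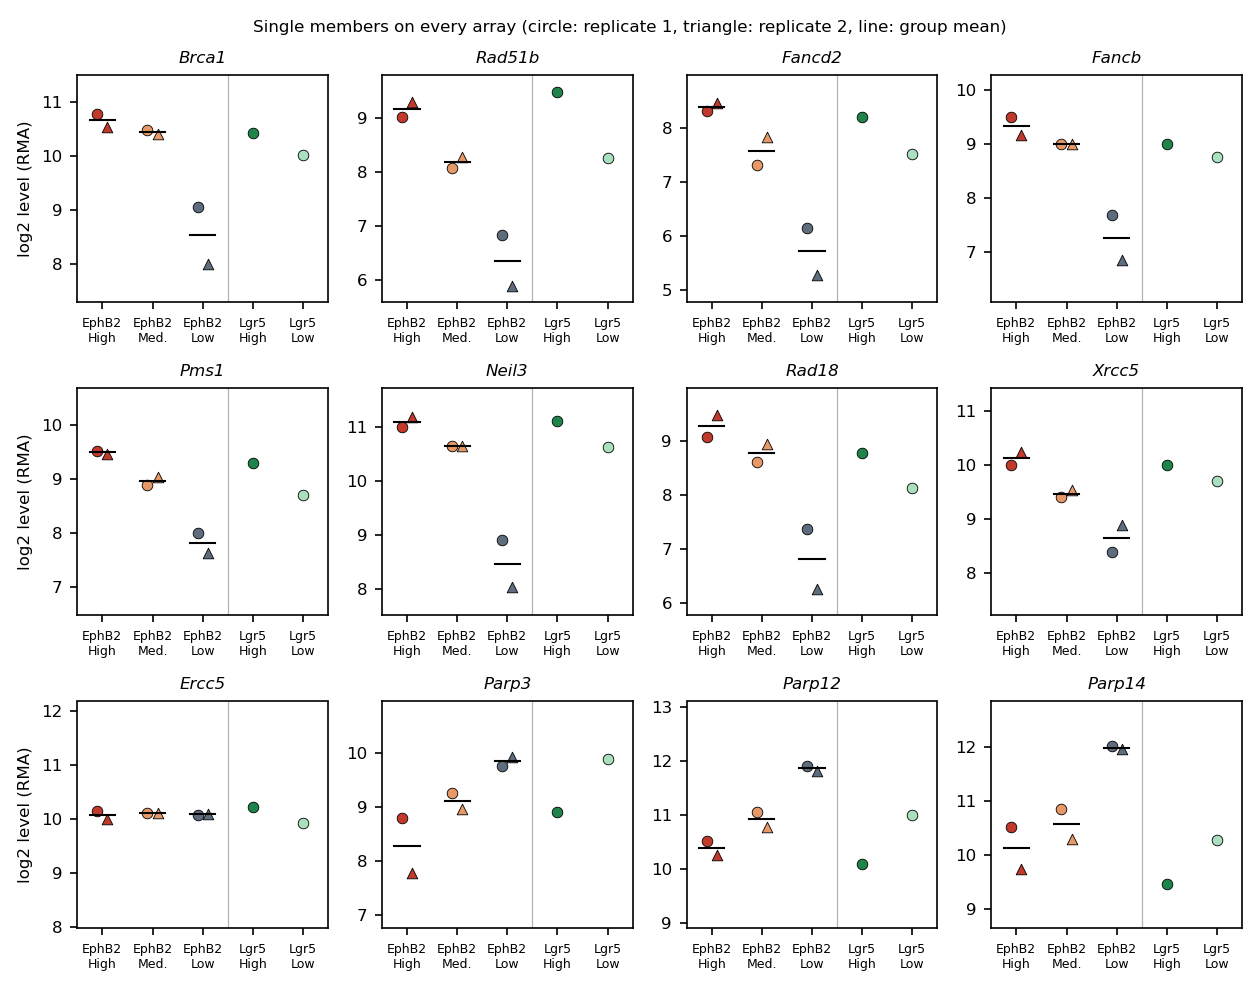
Log2 level of 12 genes on every array, with EphB2 High, Medium and Low and then Lgr5 High and Low from left to right. Circles are replicate 1, triangles replicate 2 and lines the mean of a group of 2 arrays. Brca1, Rad51b, Fancd2, Fancb, Pms1, Neil3, Rad18 and Xrcc5 are lowest on the EphB2 Low arrays and Ercc5 is level. Parp3, Parp12 and Parp14 are higher on the EphB2 Low than on the other EphB2 arrays, and Parp3 on the Lgr5 Low array, at 9.90, is at the level of the EphB2 Low arrays.

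Promoter sequences are shown for genes of the pathways that moved together, because E2F factors, which switch on genes for DNA replication, are known to act on several repair genes. RefSeq windows of GRCm38.p6, from 250 bases before to 50 bases after an annotated start, existed for 52 of the 63 genes (59 windows). The letters TTTCCCGC, TTTGGCGC, TTTCGCGC and TTTGCCGC, forms of the E2F motif, were searched on both strands. They stood in 8 of the 59 windows (13.6%), in 581 of the 18109 windows of all genes measured (3.21%) and in 2.26% of all RefSeq windows in the table. The 8 windows belonged to Brca2, Rad51c (in both of its windows), Fancg, Msh3, Msh5, Msh6 and Xrcc6, all of which but Msh5 were called higher in EphB2 High cells. The 2 matches of Msh3 overlap each other, and the match of Fancg overlaps a match to GAAA, any 2 bases and GAAA, the interferon-response letters searched in the same way. In the 3 windows below, each 5′ to 3′ along the gene, capitals mark these matches: an E2F match in each, and in Brca2 also GAAAAAGAAA, a match to the interferon-response letters, before it. They lie at chr5:150522371-150522670 on the plus strand for Brca2, chr11:87404905-87405204 on the minus strand for Rad51c and chr17:87974800-87975099 on the plus strand for Msh6.
Brca2: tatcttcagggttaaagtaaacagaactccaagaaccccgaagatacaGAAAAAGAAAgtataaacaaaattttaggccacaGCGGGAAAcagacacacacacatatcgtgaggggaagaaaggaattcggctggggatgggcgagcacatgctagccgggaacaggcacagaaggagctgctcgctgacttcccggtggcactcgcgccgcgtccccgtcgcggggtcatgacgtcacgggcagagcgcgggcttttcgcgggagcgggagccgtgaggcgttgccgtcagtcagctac
Rad51c: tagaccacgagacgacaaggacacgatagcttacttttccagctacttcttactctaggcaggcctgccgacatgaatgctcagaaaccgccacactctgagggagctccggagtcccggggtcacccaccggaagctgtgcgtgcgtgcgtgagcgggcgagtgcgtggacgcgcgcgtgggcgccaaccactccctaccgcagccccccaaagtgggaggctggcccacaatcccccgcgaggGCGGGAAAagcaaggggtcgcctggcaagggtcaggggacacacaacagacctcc
Msh6: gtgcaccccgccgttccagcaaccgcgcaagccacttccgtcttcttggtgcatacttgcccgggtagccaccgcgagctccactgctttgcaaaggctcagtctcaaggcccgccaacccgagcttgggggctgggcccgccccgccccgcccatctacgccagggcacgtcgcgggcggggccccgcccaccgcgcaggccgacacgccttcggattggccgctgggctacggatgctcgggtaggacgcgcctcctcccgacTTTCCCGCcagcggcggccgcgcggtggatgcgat
The E2F letters began 168 bases before the start in Brca2, 5 bases before it in Rad51c and 15 bases after it in Msh6. Of the 34 genes called higher that had a window, 6 held the E2F letters (17.6%), and Brca1 was not one of them. By gene, 3.81% of the 14452 measured genes with a window held them. So did 1 of the 14 genes not called and 0 of the 4 genes called lower that had a window. A match is a description of the letters in a window, and binding was not measured.

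The Fanconi anaemia genes followed recombination. Fancb, a subunit of the core complex that attaches ubiquitin to FANCD2 and FANCI, read 9.49 and 9.18 on the High arrays, 9.01 and 9.00 on the Medium arrays and 7.68 and 6.85 on the Low arrays (difference 2.07 ± 0.28, adjusted p = 0.00302). Fancm, the translocase that brings the core complex to DNA, read 7.41 and 7.50 on the High arrays, 7.04 and 7.26 on the Medium arrays and 6.07 and 5.54 on the Low arrays (difference 1.65 ± 0.20). Fancc, a bridging subunit, read 9.11 and 9.46 on the High arrays, 8.67 and 8.86 on the Medium arrays and 8.02 and 7.65 on the Low arrays (difference 1.45 ± 0.19). In each of the 3 the High arrays lay above both Medium arrays and the Low arrays below them. The ligase gene Fancl (1.42 ± 0.13), Fance (1.33 ± 0.13), Fanca (1.08 ± 0.15) and Fancg (0.88 ± 0.27, adjusted p = 0.0455) were also higher, the last 3 being core subunits. Fancg was not called when EphB2 High replicate 1, EphB2 High replicate 2, either Medium array or EphB2 Low replicate 2 was left out (differences of 0.50 to 1.27 and adjusted p of 0.00695 to 0.152 over leaving out each array). Fancf, an adaptor of the core complex, read 8.41 and 8.34 on the High arrays, 8.28 and 8.49 on the Medium arrays and 7.77 and 8.37 on the Low arrays. Its groups overlapped, because Low replicate 2 stood at the level of the High arrays, and the difference of 0.30 ± 0.21 was not called (adjusted p = 0.333). It was called with all its probe sets averaged (0.75, adjusted p = 0.00408) and without EphB2 Low replicate 2 (0.60, adjusted p = 0.0465; 0.0465 to 0.984 over leaving out each array).

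The target pair of the core complex differed in size of change. Fancd2, which is clamped on DNA together with FANCI when it carries ubiquitin, read 8.32 and 8.47 on the High arrays, 7.32 and 7.84 on the Medium arrays and 6.16 and 5.27 on the Low arrays. Every High array exceeded every Medium array, and every Medium array exceeded every Low array. The difference was 2.68 ± 0.32 (6.41-fold, adjusted p = 0.00208), and with all its probe sets averaged it was 1.07 (adjusted p = 0.00275). Fanci read 10.98 and 10.98 on the High arrays, 10.72 and 10.78 on the Medium arrays and 10.32 and 10.21 on the Low arrays, with tight replicates and a difference of 0.71 ± 0.11 (adjusted p = 0.00463), and it was not called when its probe sets were averaged (0.37, adjusted p = 0.0816; 0.0112 to 0.0336 over leaving out each array). Their 95% intervals, 1.89 to 3.47 for Fancd2 and 0.44 to 0.99 for Fanci, did not overlap, though different probe sets need not respond to RNA in the same proportion.

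Mismatch repair genes were higher in EphB2 High cells for 5 of 5, with a median of 1.28. Pms1, a MutL homologue, read 9.52 and 9.48 on the High arrays, 8.89 and 9.04 on the Medium arrays and 8.01 and 7.64 on the Low arrays (difference 1.67 ± 0.16, adjusted p = 0.00105). Msh6, which with its partner recognises base mismatches and whose promoter window is printed above, read 11.61 and 11.85 on the High arrays, 11.44 and 11.59 on the Medium arrays and 10.42 and 10.19 on the Low arrays (difference 1.42 ± 0.15, adjusted p = 0.00145). Pms2, the subunit that cuts the new strand, read 9.20 and 9.01 on the High arrays, 8.96 and 8.80 on the Medium arrays and 7.94 and 7.72 on the Low arrays (difference 1.28 ± 0.14). No array of the High group fell to the level of a Low array in these genes. Mlh3, a MutL partner that also acts in meiosis, was higher by 1.06 ± 0.17. Msh3, which recognises small loops, was higher by 0.61 ± 0.17 (adjusted p = 0.0325), and this call did not hold with EphB2 High replicate 1, EphB2 High replicate 2 or EphB2 Low replicate 1 left out (0.0230 to 0.135 over leaving out each array), with quantile normalization (0.116) or with all its probe sets averaged (0.312).

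The meiotic MutS homologues were dim. Msh5 read 6.09 and 6.76 on the High arrays, 5.98 and 6.13 on the Medium arrays and 5.92 and 4.85 on the Low arrays and Msh4 read 2.94 and 2.91 on the High arrays, 2.93 and 3.13 on the Medium arrays and 3.59 and 3.07 on the Low arrays, so neither mean over the EphB2 arrays was above the median of all probe sets. Neither was called (adjusted p = 0.087 and 0.166), at differences of 1.04 ± 0.39 and -0.41 ± 0.19. Msh5 was called without EphB2 Low replicate 1 (1.58, adjusted p = 0.0183) and with all its probe sets averaged (0.83, adjusted p = 0.0264), and Msh4 without EphB2 Low replicate 2 (-0.67, adjusted p = 0.0334). Leaving out each array in turn gave adjusted p of 0.0183 to 0.335 for Msh5 and adjusted p of 0.0334 to 0.522 for Msh4.

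Base excision repair held the second largest difference outside recombination. Neil3, a DNA glycosylase known from dividing cells, read 11.00 and 11.19 on the High arrays, 10.66 and 10.65 on the Medium arrays and 8.91 and 8.04 on the Low arrays, and its difference was 2.62 ± 0.28 (6.13-fold, adjusted p = 0.00151). Parp1, the main poly(ADP-ribose) polymerase that senses strand breaks, read 12.17 and 12.37 on the High arrays, 11.98 and 12.17 on the Medium arrays and 11.43 and 10.99 on the Low arrays (difference 1.06 ± 0.19, adjusted p = 0.00704). Xrcc1, the scaffold that gathers ligase and polymerase at single-strand breaks, read 10.37 and 10.21 on the High arrays, 10.01 and 9.89 on the Medium arrays and 9.41 and 9.19 on the Low arrays (difference 0.99 ± 0.13, adjusted p = 0.00301). Parp2, which shares the break-sensing role of Parp1, was higher by 0.73 ± 0.11. The glycosylase gene Neil1 was not called (difference 0.31 ± 0.19, adjusted p = 0.266), with overlapping groups.

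Parp3, a mono(ADP-ribosyl)transferase known from the repair of double-strand breaks, went the other way. It read 8.79 and 7.79 on the High arrays, 9.26 and 8.96 on the Medium arrays and 9.77 and 9.93 on the Low arrays, so that the Low arrays were the brightest and the 2 High arrays lay a full log2 unit apart. Its log2 difference was -1.56 ± 0.33 (adjusted p = 0.0134). The call was lost without EphB2 Low replicate 2 (-1.48, adjusted p = 0.0709; 0.00511 to 0.0709 over leaving out each array). The probe set is of a kind that can reach other transcripts, and the further 2 sets of the gene gave -0.58 and -1.51.

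End joining genes split. Xrcc5, the larger Ku subunit that caps broken ends, read 10.00 and 10.23 on the High arrays, 9.40 and 9.52 on the Medium arrays and 8.39 and 8.88 on the Low arrays (difference 1.48 ± 0.19, adjusted p = 0.00259). Xrcc6, the other Ku subunit, read 10.95 and 10.96 on the High arrays, 10.64 and 10.79 on the Medium arrays and 10.01 and 10.10 on the Low arrays (difference 0.90 ± 0.12, adjusted p = 0.00253). For both Ku genes Low replicate 2 was above Low replicate 1, unlike 37 of the 40 higher genes. Xrcc4, the ligase cofactor, read 8.13 and 8.01 on the High arrays, 7.83 and 7.95 on the Medium arrays and 7.99 and 7.87 on the Low arrays, with all 6 EphB2 arrays within a narrow band. Its difference of 0.14 ± 0.12 was not called (adjusted p = 0.441; 95% interval -0.16 to 0.43).

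Nucleotide excision repair was the repair pathway with the smallest median difference among those with at least 3 genes, 0.17, and 3 of its 8 genes were called higher, to be read against the 22% of all genes called higher. Ercc2, a helicase of the transcription factor TFIIH, read 8.56 and 8.53 on the High arrays, 8.47 and 8.23 on the Medium arrays and 7.91 and 7.59 on the Low arrays (difference 0.80 ± 0.16, adjusted p = 0.0104). Ercc8, which acts when RNA polymerase stalls at a lesion, read 9.00 and 8.84 on the High arrays, 8.78 and 8.70 on the Medium arrays and 8.25 and 8.00 on the Low arrays (difference 0.80 ± 0.14, adjusted p = 0.00639). Ercc1, a subunit of the nuclease that cuts on the 5′ side of a lesion, read 10.89 and 10.91 on the High arrays, 10.66 and 10.35 on the Medium arrays and 10.45 and 10.21 on the Low arrays (difference 0.57 ± 0.15, adjusted p = 0.0315). The High arrays lay above the Low arrays for these 3, by small amounts, and for Ercc1 the Medium and Low arrays overlapped. Ercc1 was not called without EphB2 High replicate 1, EphB2 High replicate 2 or EphB2 Low replicate 2 (0.0353 to 0.129 over leaving out each array). Ercc2 was not called without either High array (0.0117 to 0.0551) or with its probe sets averaged (0.25, adjusted p = 0.19).

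The other nucleotide excision genes gave narrow intervals around 0 or small differences. The TFIIH helicase gene Ercc3 differed by 0.00 (95% interval -0.28 to 0.29), the nuclease gene Ercc5 by -0.01 (-0.29 to 0.27) and Ercc4, the partner of Ercc1, by -0.03 (-0.39 to 0.33). Ercc5 read 10.14 and 9.99 on the High arrays, 10.11 and 10.10 on the Medium arrays and 10.07 and 10.09 on the Low arrays, so that its 6 arrays lay closer together than the 2 Low arrays of Brca1. The damage-sensing accessory factor gene Rad23b (0.34 ± 0.18) and the dim chromatin remodeller gene Ercc6 (-0.40 ± 0.22) were not called. Ercc6 was called lower without EphB2 High replicate 2 (-0.72, adjusted p = 0.0301; 0.0301 to 0.731 over leaving out each array). Ercc4 had 3 further probe sets, all above the median of all probe sets, with differences of 0.70, 0.25 and 0.08.

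The checkpoint clamp and lesion bypass genes were higher for 4 of 5. Rad18, the ubiquitin ligase that marks PCNA for bypass of lesions, read 9.09 and 9.48 on the High arrays, 8.62 and 8.96 on the Medium arrays and 7.37 and 6.28 on the Low arrays (difference 2.46 ± 0.37, 5.51-fold, adjusted p = 0.00414). Rad1, a subunit of the ring-shaped checkpoint clamp, read 9.75 and 10.01 on the High arrays, 9.31 and 9.53 on the Medium arrays and 8.43 and 7.76 on the Low arrays (difference 1.78 ± 0.24). Rad9a, its partner in the clamp, read 9.75 and 9.75 on the High arrays, 9.45 and 9.49 on the Medium arrays and 8.44 and 8.35 on the Low arrays, with replicates close together in each group, and had the smallest adjusted p of the 63 (difference 1.35 ± 0.11, adjusted p = 0.000709). Rad17, which loads the clamp, was higher by 0.48 ± 0.11 (adjusted p = 0.0156) and was not called without EphB2 High replicate 1, EphB2 High replicate 2 or EphB2 Low replicate 2 (0.0367 to 0.0839 over leaving out each array). The dim clamp homologue gene Rad9b was not called (0.46 ± 0.22, adjusted p = 0.167), but was called higher with the hybridization as a block (adjusted p = 0.0490; 0.069 to 0.587 over leaving out each array).

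The ADP-ribosyltransferases outside the strand-break enzymes were lower in EphB2 High cells or not called, with a median of -1.38 over 8 genes. Parp14, a mono(ADP-ribosyl)transferase known from cytokine signalling, read 10.52 and 9.74 on the High arrays, 10.85 and 10.29 on the Medium arrays and 12.02 and 11.96 on the Low arrays. Both Low arrays stood far above the rest, and the log2 difference was -1.86 ± 0.30 (adjusted p = 0.00532; -2.25 to -1.47 over leaving out each array). Parp16, a transferase of the endoplasmic reticulum, read 7.50 and 7.48 on the High arrays, 7.77 and 8.14 on the Medium arrays and 8.78 and 9.34 on the Low arrays and fell by 1.57 (SE 0.22). Parp12, known as interferon-inducible, read 10.51 and 10.27 on the High arrays, 11.05 and 10.79 on the Medium arrays and 11.91 and 11.83 on the Low arrays and fell by 1.48 (SE 0.15, adjusted p = 0.00133). Parp9, which works with the ubiquitin ligase DTX3L, fell by 1.44 (SE 0.18), and the vault particle enzyme gene Parp4 fell by 1.33 (SE 0.14). Parp6 (-0.26 ± 0.16), Parp8 (0.35 ± 0.19) and Parp11 (0.19 ± 0.13) were not called.

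Parp9, Parp12 and Parp14 are known as interferon-stimulated genes, and a list of interferon response genes was set beside them. Of 16 measured, 8 were lower, 1 was higher and 7 were not called in EphB2 High against EphB2 Low cells, with a median of -0.69. The largest were Ifit1, an antiviral RNA-binding protein gene, which fell by 4.84 (SE 0.31), Ifit3 by 3.32 (SE 0.18) and Usp18, which removes the ubiquitin-like ISG15, by 2.91 (SE 0.44), and Ifit2 was the higher gene (0.79 ± 0.17). Dtx3l, which lies between Parp14 and Parp9 in the RefSeq gene order of chromosome 16, was not called (-0.47 ± 0.18, adjusted p = 0.0869). Of 11 lymphocyte markers 3 were lower (Gzma, Cd52 and Cd7) and 1 was higher (Cd79b), and their median level was 4.30 to 4.35 on the High arrays, 4.22 to 4.46 on the Medium arrays and 4.64 to 4.96 on the Low arrays. Gzma, a granzyme of cytotoxic lymphocytes, read 3.35 and 3.14 on the High arrays and 6.03 and 4.55 on the Low arrays, while Ptprc, the pan-leukocyte marker CD45, read 3.49 and 3.40 on the High arrays and 3.61 and 3.63 on the Low arrays. Whether lymphocytes had a part in the Parp differences was not tested.

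The promoter window of Parp4 is shown because it held the interferon-response letters (GAAA, any 2 bases and GAAA), searched on both strands, at overlapping positions. These letters stood in 5 of the 59 windows of the repair families (8.47%) and in 548 of the 18109 windows of all genes measured (3.03%). Of the 4 windows of genes called lower, that of Parp4 held them. Of the 40 windows of genes called higher, 3 held them (7.5%), those of Brca2, Fancg and Xrcc1. Of the 15 windows of genes not called, 1 held them, a window of Parp11. The window lies at chr14:56575369-56575668 on the plus strand of GRCm38.p6, and capitals mark 2 overlapping matches that begin 150 and 144 bases before the start.
Parp4: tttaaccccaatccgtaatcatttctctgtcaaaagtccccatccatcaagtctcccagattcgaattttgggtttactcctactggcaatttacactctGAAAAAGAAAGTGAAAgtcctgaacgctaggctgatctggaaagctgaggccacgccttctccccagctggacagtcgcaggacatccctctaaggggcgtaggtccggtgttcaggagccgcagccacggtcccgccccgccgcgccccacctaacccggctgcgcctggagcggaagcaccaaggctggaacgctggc
No window was available for Parp9 or Parp14, and those of Parp3, Parp12 and Parp16 held none of these letters.

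The 5 genes matched by name but placed in none of the pathway groups behaved singly. Ercc6l, a helicase-like protein of mitotic chromosomes, read 10.12 and 9.96 on the High arrays, 9.70 and 9.79 on the Medium arrays and 8.10 and 7.36 on the Low arrays (difference 2.31 ± 0.24, 4.95-fold, adjusted p = 0.00148). Ercc6l2, linked in humans to a bone marrow failure syndrome, read 9.63 and 9.61 on the High arrays, 9.38 and 9.28 on the Medium arrays and 8.65 and 8.50 on the Low arrays (difference 1.05 ± 0.12). Fancd2os, a gene on the opposite strand beside Fancd2, read 4.69 and 3.63 on the High arrays, 3.82 and 3.17 on the Medium arrays and 3.32 and 3.10 on the Low arrays, and High replicate 1 stood above all other EphB2 arrays. It was dim and was not called (difference 0.95 ± 0.38, adjusted p = 0.111), unless High replicate 2 was left out (1.48, adjusted p = 0.0302) or the hybridization was kept as a block (adjusted p = 0.0265; 0.0302 to 0.386 over leaving out each array). The cohesin subunit gene Rad21 (0.17 ± 0.12) and the androgen receptor cofactor gene Rad54l2 (0.33 ± 0.17) were not called. Rad21 was called with its probe sets averaged (0.56, adjusted p = 0.0270; 0.37 to 0.631 over leaving out each array), and its brightest set is of a kind that can reach other transcripts.

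Partners of these proteins that lie outside the symbol families were listed by pathway. Of 104 measured of 111 listed, 75 were higher in EphB2 High cells, 2 were lower and 27 were not called, with a median of 0.86. Among recombination partners 11 of 19 were higher, led by Bard1, the binding partner of Brca1 (2.94 ± 0.56), the exonuclease gene Exo1 (2.67 ± 0.48), which is also in the mismatch list, and the helicase gene Blm (2.39 ± 0.33). Among Fanconi partners 8 of 9 were higher, led by Ube2t, the ubiquitin-conjugating enzyme of the core complex (2.44 ± 0.30), Palb2, which joins Brca1 to Brca2 (2.31 ± 0.37), and Faap24 (1.32 ± 0.14). Damage signalling was higher for 15 of 15, led by Timeless (2.63 ± 0.37), Clspn (2.43 ± 0.31) and Tipin (2.35 ± 0.35), which travel with the replication fork and pass the stall signal on. All 11 mismatch partners were higher, with the polymerase gene Pold1 (1.99 ± 0.28) and the ligase gene Lig1 (1.99 ± 0.27) next to Exo1.

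Base excision partners were higher for 11 of 15 and lower for 1, led by the DNA end-cleaning enzyme gene Tdp1 (2.17 ± 0.31) and the glycosylase genes Mbd4 (2.15 ± 0.38) and Ung (1.90 ± 0.27), and the lower gene was Aptx, which cleans abortive ligation ends (-1.00 ± 0.14). Lesion bypass and reversal genes were higher for 9 of 14, led by the polymerase gene Poli (2.32 ± 0.32), Alkbh2 (1.37 ± 0.13) and Mgmt (1.36 ± 0.18), which reverse alkylation. Nucleotide excision partners were higher for 7 of 14 with a median of 0.43, led by the TFIIH gene Gtf2h3 (1.16 ± 0.30), the lesion sensor gene Xpc (0.90 ± 0.16) and the cyclin gene Ccnh (0.69 ± 0.12). End joining partners were higher for 4 of 8 and lower for 1, with the polymerase gene Polq (0.96 ± 0.17), Aplf (0.71 ± 0.12) and the kinase gene Prkdc (0.70 ± 0.14) as the largest. Lig4, the ligase that Xrcc4 supports, fell by 0.59 (SE 0.11, adjusted p = 0.00858), and was named after its value was seen.

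Genes of the cell cycle moved in the same comparison. Of 27 measured DNA replication genes 27 were higher, with a median of 1.85 and the polymerase genes Pole (2.65 ± 0.32) and Pola1 (2.59 ± 0.39) and the helicase factor gene Gins2 (2.57 ± 0.37) as the largest. Of 17 mitosis genes 17 were higher, with a median of 2.15 and the kinesin genes Kif20a (2.81 ± 0.31) and Kif11 (2.77 ± 0.49) and the spindle kinase gene Ttk (2.62 ± 0.23) as the largest. Replication genes had median levels of 11.14 and 11.22 on the High arrays, 10.91 and 11.09 on the Medium arrays and 9.59 and 9.14 on the Low arrays. The recombination genes had medians of 10.26 and 10.06 on the High arrays, 9.76 and 9.72 on the Medium arrays and 8.75 and 8.00 on the Low arrays. The part of cell division in the repair gene differences was not tested.

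The Low replicates differed from each other. Low replicate 2 was below Low replicate 1 for 37 of the 40 higher repair genes, as for 77.1% of all genes called higher. The median difference of the 40 was 1.22 within the first hybridization and 1.41 within the second, with 40 of 40 above 0 in both and 35 larger in the second. The exceptions to the last count were Msh3, Rad17, Rad50, Xrcc5 and Xrcc6. Median levels of mitosis genes were 9.51 on Low replicate 1 and 8.44 on Low replicate 2.

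The repair families also stood higher in EphB2 Medium than in EphB2 Low cells. Of the 63 genes 35 were higher in Medium than in Low cells, 5 were lower and 23 were not called, 63.5% called against 24.7% of all genes (14.6% higher and 10.1% lower). The Medium arrays both lay above the Low arrays for 45 genes and below for 9, and overlapped them for 9, against 62.1% of all genes without overlap (32.5% above and 29.6% below). All 35 were among the 40 higher in High cells, and Ercc1, Fancg, Msh3, Rad17 and Rad52 were the 5 not called here. With the shared hybridization as a block Fancg (adjusted p = 0.0440), Rad17 (0.0472) and Rad52 (0.0343) were called higher too, as was Rad23b (0.0347). The largest were Neil3 (2.18 ± 0.28, adjusted p = 0.00668), Rad51c (2.12 ± 0.26), the Ercc6l gene (2.02 ± 0.24), Rad54b (2.00 ± 0.31) and Rad18 (1.96 ± 0.37). The 5 lower genes were Parp14 (-1.42 ± 0.30), Parp9 (-1.15 ± 0.18), Parp16 (-1.10 ± 0.22), Parp12 (-0.94 ± 0.15) and Parp4 (-0.85 ± 0.14). These counts depended on single arrays: 8 were higher and 1 was lower without EphB2 Medium replicate 2, 14 and 3 without EphB2 Medium replicate 1, and 24 and 3 without EphB2 Low replicate 2. The 8 genes that kept a call under every alternative were Ercc6l, Fance, Msh6, Neil3, Pms2, Rad51ap1, Rad51c and Rad9a.

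Between EphB2 High and EphB2 Medium cells limma called 0 of the 63 genes (17 at an unadjusted p below 0.05), against 1.36% of all genes called (0.214% higher and 1.15% lower) and 14.2% at an unadjusted p below 0.05. The 2 High arrays were both above the 2 Medium arrays for 39 genes and both below for 4, Parp3, Parp4, Parp12 and Parp16, and overlapped them for 20; 48.1% of all genes had groups that did not overlap (27.9% above and 20.2% below). The largest differences were those of Rad51b (0.98 ± 0.31, adjusted p = 0.238), Parp3 (-0.82 ± 0.33, adjusted p = 0.347), Fancd2 (0.82 ± 0.32, adjusted p = 0.342), Fancd2os (0.66 ± 0.38, adjusted p = 0.517) and Xrcc5 (0.65 ± 0.19, adjusted p = 0.209).

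Of the 40 genes higher in High than in Low cells, 39 had a larger Medium minus Low than High minus Medium difference (97.5%), as had 87.8% of all genes called higher, and Ercc1 was the exception. The medians of the 40 were 0.94 for Medium minus Low and 0.29 for High minus Medium. Both differences contain the Medium mean with opposite sign, and the test of the difference between the steps called 0 of the 63 genes by limma (17 at an unadjusted p below 0.05), against 0.0055% of all genes called and 11.9% at an unadjusted p below 0.05. The steps of a single gene were therefore not shown to differ in size. The widest gaps between the steps were those of Rad51c (-1.91 ± 0.46, adjusted p = 0.29), Neil3 (-1.73 ± 0.48, adjusted p = 0.325) and Ercc6l (-1.73 ± 0.42, adjusted p = 0.295).

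**Figure D4:**
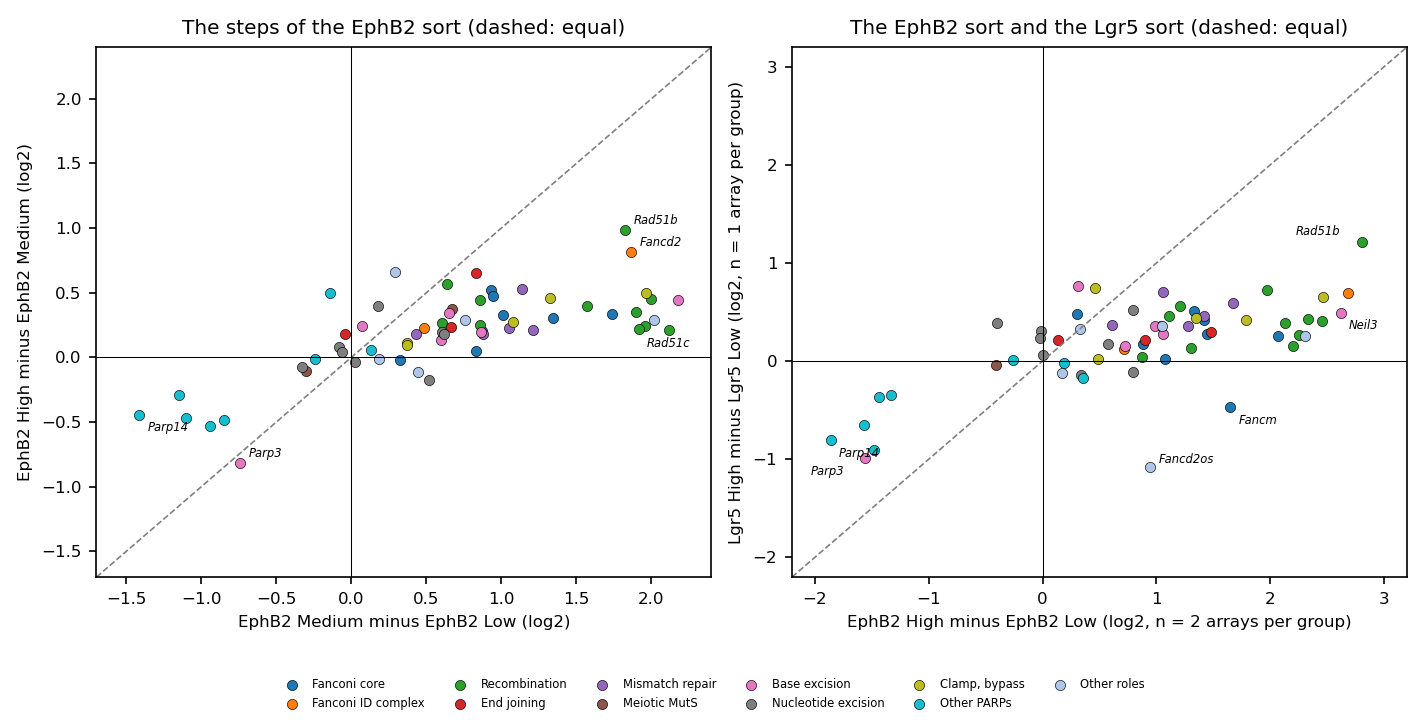
Left, log2 difference EphB2 High minus Medium against EphB2 Medium minus Low for each of the 63 genes, and right, Lgr5 High minus Low (1 array per group) against EphB2 High minus Low (2 arrays per group), coloured by pathway, with a dashed line where both are equal. On the left 39 of the 40 higher genes lie below the line, and on the right Rad51b lies highest, at 1.22, and Fancd2os lowest, at -1.08.

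The Lgr5 sort asked the same of the reporter of the stem cell gene itself, with no replicate and so no test. Of the 63 genes 1 was at least 2-fold higher on the Lgr5 High array, Rad51b, and 1 was at least 2-fold lower, Fancd2os, against 7.41% of all genes past that size (2.34% higher and 5.07% lower). The median difference was 0.28 over the 63 genes and -0.05 over all genes. Rad51b read 9.49 on the Lgr5 High array and 8.27 on the Lgr5 Low array, a difference of 1.22. Fancd2os read 3.29 on the Lgr5 High array and 4.36 on the Lgr5 Low array (-1.08), both below the median of all probe sets.

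The sorts differed in cell type markers. On the Lgr5 High array 5 of 12 stem cell markers were at least 2-fold higher than on the Lgr5 Low array and 11 of 13 enterocyte markers at least 2-fold lower. At least 2-fold lower were also 8 of 9 enteroendocrine, 5 of 8 goblet and 4 of 6 tuft cell markers, and 0 of 6 Paneth cell markers passed that size either way (median difference -0.48). Tuft and Paneth cell markers thus had medians of opposite sign in the EphB2 and Lgr5 comparisons, and that difference was not tested.

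Of the 40 genes higher in EphB2 High than in EphB2 Low cells, 38 were above 0 in the Lgr5 comparison (95%), as were 85.2% of all genes called higher in the EphB2 comparison and 44.2% of all genes. Their median Lgr5 difference was 0.36. Brca2 read 10.31 on the Lgr5 High array and 9.58 on the Lgr5 Low array (0.73), Mlh3 read 8.12 on the Lgr5 High array and 7.42 on the Lgr5 Low array (0.70) and Fancd2 read 8.20 on the Lgr5 High array and 7.51 on the Lgr5 Low array (0.69). Brca1, at 10.42 on the Lgr5 High array and 10.03 on the Lgr5 Low array, and Neil3, at 11.12 on the Lgr5 High array and 10.63 on the Lgr5 Low array, differed by less (0.39 and 0.49). For these genes the Lgr5 High array was the higher of the pair, by less than the EphB2 High arrays exceeded the EphB2 Low arrays. The exceptions were Fancm, which read 7.34 on the Lgr5 High array and 7.81 on the Lgr5 Low array (-0.47), and Ercc8, which read 8.44 on the Lgr5 High array and 8.55 on the Lgr5 Low array (-0.11).

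The other repair genes given above on the EphB2 arrays had Lgr5 differences of less than 2-fold. In recombination Rad54b read 9.82 on the Lgr5 High array and 9.41 on the Lgr5 Low array, and Rad51c read 7.07 on the Lgr5 High array and 6.65 on the Lgr5 Low array. In the Fanconi core Fancb read 9.01 on the Lgr5 High array and 8.75 on the Lgr5 Low array, and Fancc read 9.04 on the Lgr5 High array and 8.76 on the Lgr5 Low array. Their substrate Fanci read 10.86 on the Lgr5 High array and 10.74 on the Lgr5 Low array. The Lgr5 High array was the higher of the pair for these 5 genes, by 0.12 for Fanci and up to 0.43 for Rad51c.

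Of the mismatch repair genes Pms1 read 9.29 on the Lgr5 High array and 8.70 on the Lgr5 Low array, Msh6 read 11.68 on the Lgr5 High array and 11.22 on the Lgr5 Low array, and Pms2 read 8.84 on the Lgr5 High array and 8.48 on the Lgr5 Low array. The dim Msh5 read 5.93 on the Lgr5 High array and 5.57 on the Lgr5 Low array, and Msh4 read 3.08 on the Lgr5 High array and 3.12 on the Lgr5 Low array. Msh4 was nearly level, and the others were higher on the Lgr5 High array. Among the clamp and bypass genes Rad18 read 8.79 on the Lgr5 High array and 8.14 on the Lgr5 Low array, Rad1 read 9.70 on the Lgr5 High array and 9.28 on the Lgr5 Low array, and Rad9a read 9.84 on the Lgr5 High array and 9.40 on the Lgr5 Low array. All 3 were higher on the Lgr5 High array, Rad18 by the most (0.65).

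Small differences were seen for the end joining genes and, of the base excision genes, for Parp1 and Xrcc1. Over the 6 base excision and single-strand break genes the Lgr5 differences ran from -0.99 to 0.77, with 5 above 0. Xrcc5 read 9.99 on the Lgr5 High array and 9.69 on the Lgr5 Low array, Xrcc6 read 11.03 on the Lgr5 High array and 10.81 on the Lgr5 Low array, and Xrcc4 read 8.01 on the Lgr5 High array and 7.79 on the Lgr5 Low array. Parp1 read 12.19 on the Lgr5 High array and 11.91 on the Lgr5 Low array, and Xrcc1 read 10.19 on the Lgr5 High array and 9.83 on the Lgr5 Low array. These 5 genes differed by 0.21 to 0.36. In nucleotide excision Ercc2 read 8.87 on the Lgr5 High array and 8.35 on the Lgr5 Low array, and Ercc1 read 10.89 on the Lgr5 High array and 10.72 on the Lgr5 Low array. Ercc6l read 9.64 on the Lgr5 High array and 9.38 on the Lgr5 Low array, and Ercc6l2 read 9.33 on the Lgr5 High array and 8.97 on the Lgr5 Low array, both by less than in the EphB2 comparison.

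All 6 genes lower in EphB2 High cells were below 0 in the Lgr5 comparison too. Parp3 read 8.92 on the Lgr5 High array and 9.90 on the Lgr5 Low array (-0.99), Parp12 read 10.10 on the Lgr5 High array and 11.01 on the Lgr5 Low array (-0.91) and Parp14 read 9.46 on the Lgr5 High array and 10.27 on the Lgr5 Low array (-0.81). Parp16, which read 7.21 on the Lgr5 High array and 7.86 on the Lgr5 Low array (-0.65), Parp9 (-0.37) and Parp4 (-0.35) differed by less. Beside them, 4 of the 16 interferon response genes were at least 2-fold lower on the Lgr5 High array, with Ifit1 at 3.55 on the Lgr5 High array and 7.94 on the Lgr5 Low array. Gzma was the other way, at 7.05 on the Lgr5 High array and 4.04 on the Lgr5 Low array. It was the only 1 of the 11 lymphocyte markers at least 2-fold higher on the Lgr5 High array, and 0 were at least 2-fold lower. Of the 11 markers 5 were above 0, with a median difference of -0.05. Mitosis genes had median levels of 11.44 on the Lgr5 High array and 10.99 on the Lgr5 Low array, and replication genes had 11.06 on the Lgr5 High array and 10.78 on the Lgr5 Low array, so the Lgr5 groups stood closer together in cell cycle genes than the EphB2 High and Low groups did. Whether this had a part in the size of the repair gene differences was not tested.

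Other probe sets of the same genes were compared. Of the 63 genes 43 had 77 further probe sets, of which 14 had the opposite sign of the EphB2 High minus Low difference, in 11 genes. Among called genes these were Ercc2, Fancd2, Msh3 and Rad51d, and none of the opposite sets of these 4 was above the median of all probe sets. Rad51ap1, with 3 further sets at 3.10, 2.49 and 2.35, and Rad18, with sets at 2.60 and 2.15 and a dim one at 1.10, gave large differences in each.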

How the data were processed

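Sorted mouse crypt cells were measured on 8 Affymetrix arrays of 45101 probe sets. The deposited values are log2 levels made by the authors with RMA, per the submitters' processing notes, which corrects the background and quantile-normalizes the arrays. No source used here says whether all 8 arrays were normalized in 1 run. The RNA was amplified before labelling, per the labels' protocols. Number of arrays limits the precision.

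Of the probe sets 64 were controls, 34945 named 1 gene in the platform annotation, 932 named several and 9160 had no gene name in the table used. For each of 18193 genes the probe set of highest mean over the 6 EphB2 arrays was kept. Sets designed to be shared between transcripts represent Parp3, Xrcc3, Rad21, Ercc1 and Rad23b. The EphB2 groups were compared with limma 3.58.1 in R 4.3.3 (lmFit, contrasts and eBayes, group as the only term, 3 residual degrees of freedom), with Benjamini-Hochberg adjustment over all genes and calls at an adjusted p below 0.05. Errors are limma's standard errors. The Lgr5 arrays were compared by size alone, at a log2 difference of 1. The fit was tested on simulated data. Python 3.11.15, pandas 2.3.3, numpy 2.4.6 and matplotlib 3.10.9 were used for the rest.

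The genes, pathways and lists were chosen with earlier results of these data known. Values on every array are given for the 3 genes of largest difference in each pathway and for a set list of well-known repair genes, and of each partner list the 3 largest are named. Fancf, Ercc5, Parp9's neighbour Dtx3l, Aptx, Lig4, Ifit2, the lymphocyte genes and the Lgr5 examples were named outside that rule, after their values were seen. Equal replicate numbers mark a shared hybridization, per the labels, and deviations from the group means correlated at 0.45 between High and Medium, 0.13 between High and Low and 0.21 between Medium and Low. The main fit did not pair the arrays by these numbers. A fit with the hybridization as a block, which pairs them, was run as an alternative. Other alternatives were quantile normalization, leaving out dim genes, eBayes with trend and robust settings, the mean of all probe sets of a gene, and leaving out each array.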

Additional observations from a re-analysis of the deposited data

Results flagged for a closer look

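Of the 40 repair genes higher in EphB2 High than in EphB2 Low cells, 2 had an Lgr5 difference of the opposite sign. Fancm, the translocase gene of the Fanconi core complex, differed by -0.47 between the Lgr5 High and Lgr5 Low arrays and by 1.65 between EphB2 High and EphB2 Low cells. Ercc8, the gene for a factor of transcription-coupled repair, differed by -0.11 in the Lgr5 comparison and by 0.80 in the EphB2 comparison. The difference between the sorts was not tested, since each Lgr5 group has 1 array.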

How the results depend on the processing

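In the EphB2 comparisons, no difference that was itself called changed sign under any alternative run. Between EphB2 High and EphB2 Low cells 38 of the 46 called genes kept their call under every alternative, with 35 to 40 higher and 6 to 7 lower over leaving out each array. With the hybridization as a block, so with the arrays paired, 42 were higher and 6 lower, adding Fancd2os (adjusted p = 0.0265) and Rad9b (adjusted p = 0.049), and between Medium and Low cells 39 were higher and 5 lower. Between Medium and Low cells leaving out each array gave 8 to 35 higher and 1 to 6 lower, with 32 of the 40 called genes losing the call in at least one such fit. A group left with 1 array was assumed to vary like the others. High against Medium cells and the difference between the steps gave 0 calls among the 63 genes in every setting run. The 1 gene at least 2-fold lower in the Lgr5 comparison, Fancd2os, was 0 with quantile normalization and 0 with dim genes left out. Over all genes, calls between High and Low cells numbered 4245 without EphB2 High replicate 2 against 6792 with all arrays. Calls between Medium and Low cells numbered 1662 without Medium replicate 1, 988 without Medium replicate 2 and 2485 without Low replicate 2, against 4489. Calls between High and Medium cells numbered 429 with dim genes left out, 509 with trend and robust settings and 0 to 101 without 1 array, against 248, and for the steps 0 to 8, against 1. The cause was not tested, beyond the fewer arrays or genes in those fits. Of the 63 genes 6 lay at or below the median of all probe sets, where signal over background limits the values.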
